A study of Drosophila melanogaster with 12 samples.

Results

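The genes described here are 421 protein-coding and noncoding loci of Drosophila melanogaster that the deposited count table lists only under a CG number, the systematic identifier given to predicted genes before anyone has named them, and whose level in type II neuroblasts was higher late in larval life than early. They were selected on measured values: a symbol made of CG and digits, a mean of at least 10 CPM (counts per 1000000) at 84 h after larval hatching, an 84 h mean at least 2 times the 24 h mean, and every 84 h library above every 24 h library. CPM is a gene's count divided by the sum of all gene counts of its library, spike-ins left out, and multiplied by 1000000. Of 7807 CG-numbered genes in the table, 2035 reached 10 CPM at 84 h, 503 of these also reached the ratio of 2, and 421 met all conditions. The same conditions were met by 517 of the 7533 genes listed under other symbols. Over all 5238 genes with at least 10 CPM at 84 h, 938 (17.9%) met the rule. Because the rule used the 24 h and 84 h libraries, the 84 h against 24 h values below are a description of how the genes were picked and carry no test.

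Type II neuroblasts are neural stem cells of the larval brain that divide asymmetrically and renew themselves while producing intermediate neural progenitors, which divide further before making neurons and glia. As larval life goes on, these stem cells pass from an early state marked by high Imp and chinmo to a late state marked by Syp, broad and Eip93F, a change that the nuclear receptor Seven-up sets in motion, and the series was made to examine such temporal factors. The samples were GFP-labelled cells sorted from the central nervous system of larvae of 4 ages, 24, 36, 50 and 84 h after hatching, grown at 25 °C, with 3 libraries per age and 12 in all. All 12 were given the label type II neuroblast, no mutant or treatment was included, and neither the driver line nor genotype and sex is named in the sources used. Each library held RNA of 93 to 132 cells, amplified before library construction, and the same ERCC spike-in mix, a set of synthetic RNAs, was added to every sample.

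Gene counts per library ran from 4512102 to 8391731, so 3 counts corresponded to 0.357 to 0.665 CPM. Summed over pnt, btd, dpn, wor and mira, type II neuroblast markers stood at 1369 to 2363 CPM in the 12 libraries, and ase, which marks type I neuroblasts, at 2.68 to 9.21 CPM. Neuronal markers summed to 640 to 884 CPM for the 7 of 8 in the table. The largest were Nrg (means 352, 342, 403 and 332 CPM from 24 to 84 h), elav (191, 176, 224 and 363 CPM) and fne (147, 156, 147 and 110 CPM). The lower ones, brp (1.667, 2.059, 13.7 and 1.675 CPM), cpx (15.54, 12.01, 23.83 and 13.38 CPM), Syt1 and para, had their highest means at 50 h. Glial markers summed to 256 to 469 CPM, mainly nrv2 (249.2, 310.5, 327.2 and 338.6 CPM) and loco (41.47, 34.36, 31.51 and 64.49 CPM). Mean repo was no more than 1.63 CPM. Intermediate progenitor markers summed to 561 to 1033 CPM, mainly grh (929.5, 720, 639 and 792.6 CPM), and D averaged 23.55, 44.32, 81.67 and 5.679 CPM. The other markers of that list were near zero, with highest means at any age of 1.038 CPM for erm, 0.9296 for ham and 1.503 for opa. Hemocyte and fat body markers did not exceed 10.2 CPM and muscle markers 9.54 CPM in any library. The part of other cells in the results below was not tested. In pooled sorted cells, fewer cells carrying an RNA and less of that RNA per cell cannot be told apart.

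One property of the scale bears on every level given here. On CPM the median log2 ratio of 84 h to 24 h over the 5238 genes at 10 CPM or more was 0.40, whereas on CPM divided by TMM factors, which set the bulk of genes level between libraries, it was 0.00. Some very abundant RNAs also changed their share of the counts. Imp held 5.03% of gene counts at 24 h and 0.0259% at 84 h. The noncoding RNA row CR43283 held 11.5, 16.3, 11.4 and 5.63% from 24 to 84 h, and Syp went the other way, with means of 527, 10548, 30310 and 29022 CPM. The part of these RNAs in the difference between the scales was not tested. The 421 genes had a median log2 ratio, computed on CPM + 1, of 1.35 on CPM and 0.96 on TMM-adjusted CPM. All 421 had a ratio above 1 on the adjusted scale and 336 had no overlap between the ages, but only 182 still reached the ratio of 2 and the other conditions. With counts scaled to spike-in totals 372 of the 421 met the rule, and with the authors' TPM 295 did. The size of each gene's ratio to 24 h therefore depends on the scale, and the 182 are pointed out where it matters.

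Summed over all 421 genes, the level was higher at each later age, with differences between the libraries of an age. The 24 h libraries held 7588, 7620 and 9843 CPM, the 36 h libraries 10088, 10313 and 13773 CPM, the 50 h libraries 17634, 15433 and 18135 CPM, and the 84 h libraries 18895, 25408 and 24999 CPM. No library of an age overlapped a library of the next, although replicate 3 stood high at 24 h and 36 h and replicate 1 low at 84 h. Gene by gene, 246 of the 421 were highest in replicate 3 among the 24 h libraries, 288 were highest in replicate 3 among the 36 h libraries, and 290 were lowest in replicate 1 among the 84 h libraries. In 24 h replicate 3 the spike-in share of counts was 0.493% against 0.799% and 0.939% in the other 24 h libraries, and in 84 h replicate 1 it was 0.599% against 0.231% and 0.341%. The part of these differences in the members' levels was not tested. The rule kept 570 genes without 24 h replicate 3 and 616 without 84 h replicate 1.

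**Figure D1:**
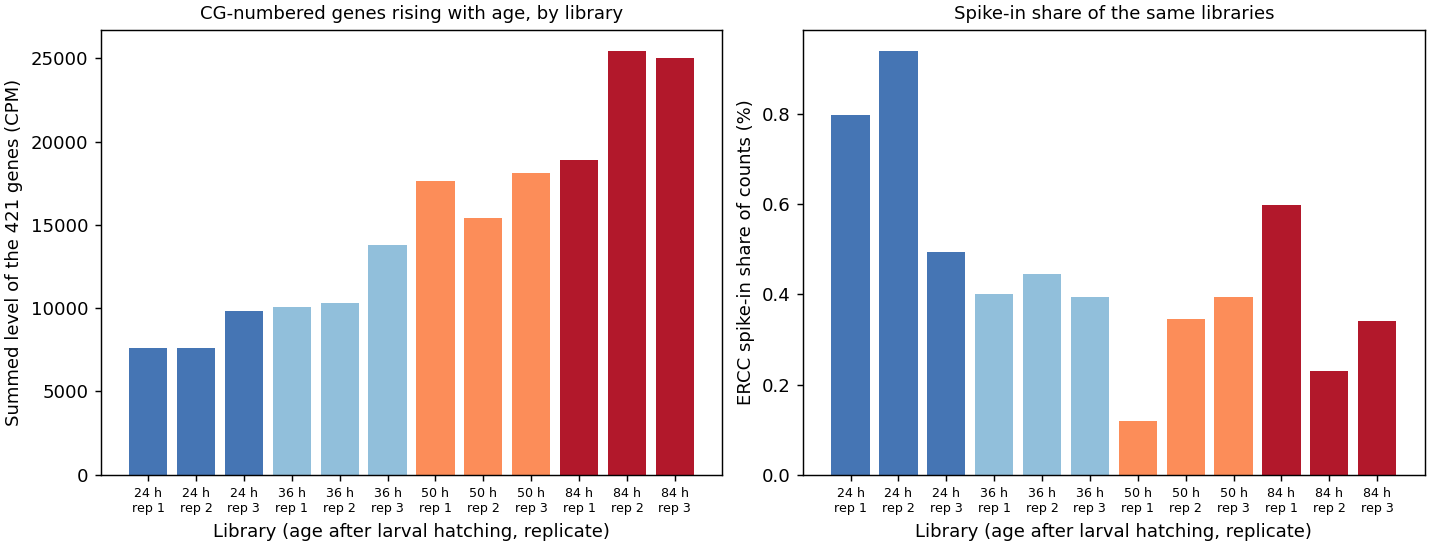
Left, the summed level of the 421 CG-numbered genes in CPM in each of the 12 libraries, coloured by age. Right, the share of all counts taken by ERCC spike-ins in the same libraries, in percent. The sums run from 7588 CPM in 24 h replicate 1 to 25408 CPM in 84 h replicate 2, and 84 h replicate 1 is at 18895 CPM with a spike-in share of 0.599%.

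Most of the 421 were genes of modest level. Their 84 h means ran from 10.04 to 787.4 CPM with a median of 30.31 CPM, 135 were under 20 CPM and 51 were at 100 CPM or more. Medians of their means were 10.13 CPM at 24 h, 14.73 at 36 h and 21.04 at 50 h. The median ratio of the 84 h to the 24 h mean was 2.7. It was under 3 for 261 genes, 4 or more for 82 and 10 or more for 22. At the edges of the rule, CG7200, now named JMJD4 (10.04 CPM at 84 h), and CG4933, now Tcs3 (10.14), were just inside the level and CG14221 (9.957) and CG6028 (9.866) just outside. CG8378, now Smyd4-4 (62.59 CPM at 24 h, 125.2 at 84 h), and CG42399 (ratio 2.011) were just inside the ratio, and CG4593 (1.9997) and CG12163, now CtsF (1.9987), just outside.

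Although all were unnamed in the deposited table, many have since been given names. Of the 421, 419 could be matched to a current RefSeq gene of the Release 6 assembly, 417 of them protein coding, and 154 carry a name there while 265 are still listed under a CG number. Names below are the current ones, with the CG number as the files give it. CG11509 is now listed under the same gene as br (broad), which encodes BTB zinc finger factors of the ecdysone response. CG11509 averaged 3.61, 9.05, 22.1 and 11.5 CPM at 24, 36, 50 and 84 h, and the row br itself averaged 81.6, 328, 907 and 383 CPM. Both rows were highest at 50 h. How the counting treated reads shared by overlapping rows is not stated in those sources.

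By CPM, the member with the highest 84 h mean was CG6695. Its 24 h libraries held 177, 231 and 149 CPM, its 36 h libraries 131, 173 and 180, its 50 h libraries 245, 243 and 231, and its 84 h libraries 655, 896 and 811. The 50 h libraries were level with the highest 24 h library, and the 84 h libraries stood apart. Akr1B (CG6084), an aldo-keto reductase that reduces aldehydes with NADPH, stood at 187, 186 and 317 CPM at 24 h, 293, 240 and 467 at 36 h, 759, 435 and 644 at 50 h, and 494, 765 and 852 at 84 h. Neighbouring ages overlapped, while all 50 h libraries were above all 24 h libraries. CG2865 went from a mean of 309 ± 42.6 CPM (SD, n = 3) at 24 h to 623 ± 166 at 84 h, and Paip1 (CG8963), which binds poly(A)-binding protein in translation, from 248 ± 30.9 to 504 ± 51.6. Sf3b6 (CG13298), a small subunit of the SF3b complex that recognises the intron branch point, went from 116 ± 54.6 to 395 ± 135 CPM. Non2 (CG1240) went from 175 ± 27.9 to 367 ± 95.0 CPM, CG5676 from 143 ± 21.5 to 332 ± 53.2, and Arl6IP1 (CG10326), which shapes endoplasmic reticulum tubules, from 112 ± 16.8 to 282 ± 66.7. CG2865, Paip1, Non2, CG5676 and Arl6IP1 did not meet the rule on TMM-adjusted CPM. CG12496 also belongs to the 10 with the highest 84 h means and is described with the 50 h genes below.

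Per length, the order of these genes was different. The authors' deposited TPM, which divides by transcript length, averaged 1081 at 84 h for Akr1B, 1015 for CG5676 and 1004 for Sf3b6. CG6695 averaged 589 TPM and CG2865 259 TPM.

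The largest ratios belonged to genes that were close to zero at 24 h. CG31195 had 6 counts in all over the 24 h libraries (0.477, 0 and 0.409 CPM), against 8.78, 11.7 and 11.8 CPM at 36 h, 33.0, 48.3 and 32.1 at 50 h, and 46.7, 26.6 and 32.0 at 84 h. It was thus already clear of the 24 h level at 36 h. CG42322 had 9 counts at 24 h (0.477, 0.517 and 0.204 CPM) and 32.1, 29.3 and 36.1 CPM at 84 h. CG33494 had 4 counts at 24 h and 9.51, 22.1 and 20.6 CPM at 84 h, and Eglp4 (CG4019), an aquaporin-family channel for glycerol and water, 5 counts and 5.64, 12 and 14.4 CPM. With the 24 h mean of these 4 genes set to a floor of 3 counts per library (0.453 CPM), the ratios of the means were 77.5, 71.7, 38.5 and 23.6. CG31710, CG8520, CG14545 and CG43366 had ratios of 28.1, 26.4, 26.3 and 26.1. Gbs-70E (CG9238), a subunit that brings protein phosphatase 1 to glycogen, had a ratio of 26.7, from 1.79, 2.46 and 6.13 CPM at 24 h to 69.4, 101 and 107 at 84 h.

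The time at which the genes rose differed from gene to gene. The rise was measured as the difference of log2(mean CPM + 1) between 24 h and 84 h, and a gene was classed by when a share of 0.5 of it was reached. By this measure 127 genes were early (reached by 36 h), 203 middle (reached by 50 h, not by 36 h) and 91 late. Means rose at every step for 278 genes, and the highest mean fell at 84 h for 372, at 50 h for 45 and at 36 h for 4. The 4 with the highest mean at 36 h were CG12948, CG5021, Pmvk (CG10268) and Trm7-32 (CG5220), and none of these met the rule on TMM-adjusted CPM. The early class rests in part on the high 36 h replicate 3: without it 79 genes were early. Comparisons of 36 h with 24 h and of 84 h with 50 h share libraries with the rule and were not tested.

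CG13023 showed the sharpest late step among the genes named here. Its libraries held 3.22, 9.95 and 6.95 CPM at 24 h, 12.97, 11.7 and 6.43 at 36 h, 6.24, 18.1 and 11.1 at 50 h, and 120, 152 and 134 at 84 h. The first 3 ages overlapped and the 84 h libraries stood apart. CG15628, the ninth by 84 h mean, also had 84 h libraries that stood apart, with 50 h libraries at 70.4, 103 and 72.5 CPM and 84 h libraries at 312, 270 and 257 CPM. Unlike CG13023, CG15628 was called higher at 50 h than at 36 h in the test described below. CG6695 and Gbs-70E were also late by this measure. Among the members with a ratio of 10 or more, CG11893 went from a mean of 8.73 CPM at 50 h to 51.3 at 84 h, hng3 (CG13897) from 6.62 to 28.7, and CG2680 from 2.47 to 20.4. The middle ages of CG11893 were uneven: its fold at 50 h against 36 h ran from 0.273 to 5.42 with 1 library left out.

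**Figure D2:**
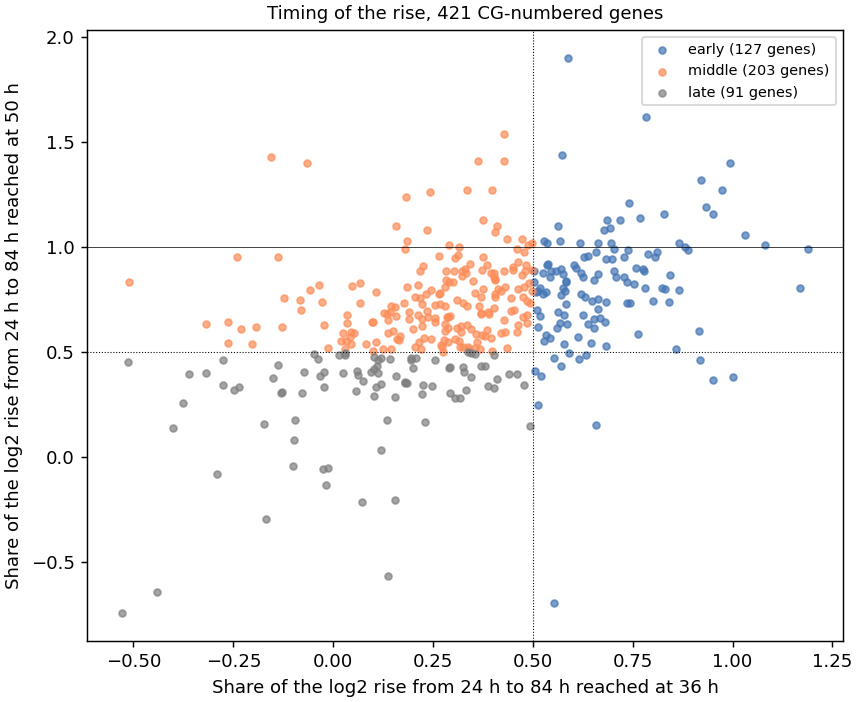
Each point is 1 of the 421 genes. The x axis gives the share of its rise from 24 h to 84 h, in log2(mean CPM + 1), reached at 36 h, and the y axis the share reached at 50 h. Dotted lines mark 0.5 and the solid line marks the 84 h level. The 127 early genes lie right of the vertical line, the 203 middle genes upper left and the 91 late genes lower left, and the shares spread widely in each class.

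The 36 h and 50 h libraries took no part in choosing the genes, so a difference between these ages could be tested. All 7291 genes that passed a filter on low counts were fitted together with edgeR's quasi-likelihood test on the 6 libraries, with Benjamini-Hochberg adjustment over all of them and a threshold of 0.05. All 421 members passed the filter. The test called 273 genes higher at 50 h (3.74%) and 305 lower (4.18%). Of the members, 46 (10.9%) were called higher and 0 lower. At an unadjusted p under 0.05, 94 members were higher and 3 lower, and DESeq2 called 50 higher and 0 lower. The median log2 fold change of the members was 0.34 (quartiles 0.05 and 0.60) against 0.02 over all genes tested, and 337 members (80%) were above 0 against 51.9% of all. On CPM without TMM factors, all 3 libraries of 50 h were above all 3 of 36 h for 144 members (34.2%) against a background of 18.1%. All were below for 2 members, CG43658 and CG9008 (0.475%), against 6.73%. The fold changes and calls above used TMM, and without it the median log2 fold change was 0.49 for members and 0.19 for all genes. Most single members thus did not pass the test, and the typical difference of 0.34 was about as large as the median standard error of 0.36. Of the 46 calls, 34 were among the 182 genes that also met the rule on TMM-adjusted CPM (18.7% of these) and 12 among the other 239 (5.02%).

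These proportions moved with scale and with single libraries. Without TMM the test called 374 genes higher and 150 lower, and 52 members higher. With spike-in totals as library sizes it called 107 genes higher and 4 lower, 17 members higher, and the median was 1.41 for members and 1.08 for all genes. Members' median minus that of all genes was 0.32, 0.31 and 0.32 on the 3 scales. Other library sizes shift the log2 fold changes of all genes by nearly the same amount, so this difference could hardly move. Leaving out 1 library at a time left 20 to 30 members called, the lowest without 36 h replicate 2 and the highest without 50 h replicate 3, and gave member medians of 0.28 to 0.43. The lone member called lower in any of these, OtopLa (CG42492), a proton channel of the otopetrin family, was called only without 50 h replicate 1 (edgeR adjusted p = 0.0401).

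The same counts were taken for other lists. Of the 517 rising genes listed under other symbols, 508 were tested, 89 (17.5%) were called higher and 2 lower, with a median log2 fold change of 0.40. Of 70 CG-numbered genes that met the rule turned round, higher at 24 h than at 84 h, 69 were tested and 29 called lower, with a median of -0.95. Of 2773 tested CG-numbered genes that met neither rule, 46 (1.66%) were called higher and 64 lower, with a median of 0.01. The rates differ between these lists by what chose them, and no test of their difference was made. Members with a name now and members still under a CG number gave 16 of 154 and 30 of 265 calls.

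**Figure D3:**
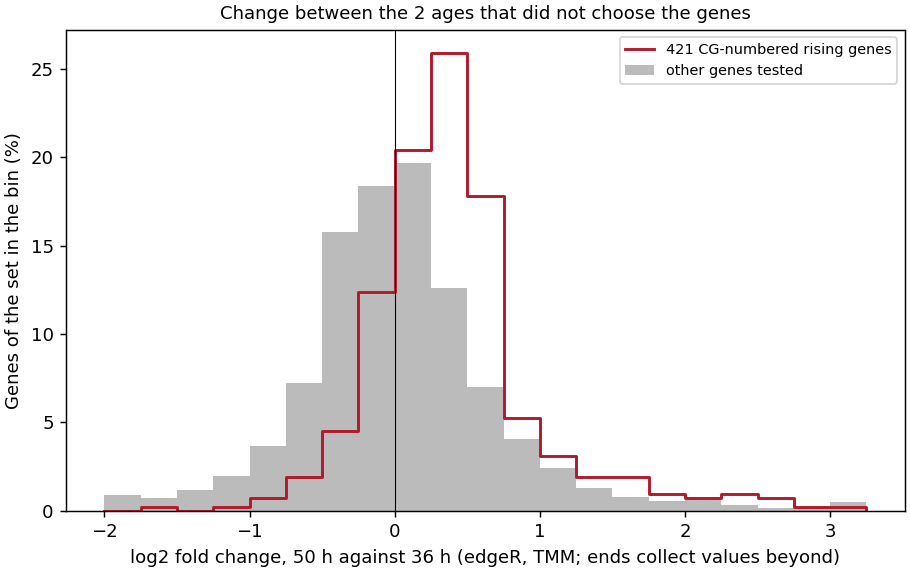
Distribution of the log2 fold change at 50 h against 36 h for the 421 members (red line) and the other genes tested (grey bars), as percent of each set in bins of 0.25, with values beyond the ends collected in the last bins. The members' median is 0.34 and that of all genes tested 0.02, and the 2 distributions overlap over most of their range.

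Of the 46 called members, 15 were called in each of the 6 fits that left out 1 library, and 14 of these met the rule on TMM-adjusted CPM as well. The exception was CG17271. Under the other settings 8 of the 15 kept the call in all, and 7 (snu, Dtg, Zmynd10, rdog, mEFTs, CG8520 and CG17271) lost it in at least 1, with adjusted p of at most 0.108. In the following, each adjusted p is that of edgeR's quasi-likelihood test with Benjamini-Hochberg adjustment over the 7291 genes. As a family these 15 were defined by the calls, so their sizes are descriptions of called genes.

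The largest log2 fold change among the called members was that of snu (CG9990), an ABC transporter known in Drosophila for its part in the lipid barrier of the cuticle. Its libraries held 3.34, 5.94 and 1.02 CPM at 24 h, 7.06, 6.04 and 5.78 at 36 h, 63.5, 71.8 and 63.8 at 50 h, and 72.9, 72.8 and 59.0 at 84 h. It was low at both early ages and high at both late ages, with no overlap. The log2 fold change from 36 h to 50 h was 3.22 (SE 0.28, adjusted p = 8.06e-08, higher in 3 of 3 libraries). Its adjusted p ran from 4.1e-08 to 3.26e-06 over the leave-outs. Limma on log2(TPM + 0.1) gave 0.0614 for this gene.

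CG12496 had the highest CPM of the 45 members whose highest mean was at 50 h. It stood at 59.0, 118 and 104 CPM at 24 h, 167, 156 and 211 at 36 h, 656, 646 and 942 at 50 h, and 232, 282 and 324 at 84 h. The 4 ages did not overlap, and the 84 h level was between those of 36 h and 50 h. The log2 fold change from 36 h to 50 h was 1.91 (SE 0.16, adjusted p = 3.51e-08), and the gene was called under all 17 other settings of the test.

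Neighbouring genes for lysosomal regulators both rose between 36 h and 50 h. Lamtor4 (CG14977), a subunit of the Ragulator complex that anchors TORC1 signalling to lysosomes, stood at 7.98, 6.59 and 11.03 CPM at 24 h, 7.25, 8.58 and 7.71 at 36 h, 61.1, 49.3 and 26.6 at 50 h, and 24.3, 40.5 and 21.0 at 84 h. Ccz1 (CG14980), which with Mon1 activates the late endosomal GTPase Rab7, stood at 1.91, 6.46 and 3.47 CPM at 24 h, 3.24, 4.09 and 2.36 at 36 h, 29.7, 13.6 and 16.4 at 50 h, and 10.4, 16.9 and 10.5 at 84 h. Both were highest at 50 h. Their log2 fold changes from 36 h to 50 h were 2.38 (SE 0.34, adjusted p = 7.81e-05) and 2.42 (SE 0.47, adjusted p = 0.00193). The genes are neighbours on chromosome arm 3L with exons that overlap over 3.59% and 10.1% of their lengths, and no strand setting of the counting is stated, so reads of the shared stretch cannot be assigned.

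Dtg (CG6234), named as a target gene of the BMP ligand Dpp, stood at 2.15, 1.03 and 1.84 CPM at 24 h, 6.11, 1.76 and 3.00 at 36 h, 24.5, 27.9 and 17.95 at 50 h, and 22.2, 35.8 and 30.7 at 84 h. The log2 fold change from 36 h to 50 h was 2.50 (SE 0.47, adjusted p = 0.00146), a fold of 5.66 that became 9.26 without 36 h replicate 1. Zmynd10 (CG11253), which helps assemble the dynein arms of motile cilia, stood at 3.58, 0.129 and 0.204 CPM at 24 h, 2.29, 3.70 and 1.71 at 36 h, 17.7, 16.2 and 15.7 at 50 h, and 15.9, 15.4 and 10.7 at 84 h. The 50 h libraries were close together and well above all 36 h libraries (log2 fold change 2.48, SE 0.50, adjusted p = 0.00234). Of its 24 h libraries 2 were near zero and the other was within the 36 h range.

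Among metabolic genes, Drat (CG1600), an alcohol-dehydrogenase-like protein, stood at 32.1, 21.7 and 43.7 CPM at 24 h, 44.6, 32.6 and 45.2 at 36 h, 185, 165 and 155 at 50 h, and 220, 282 and 284 at 84 h. Its 24 h and 36 h libraries overlapped, and from 36 h to 50 h it rose by 1.88 on the log2 scale (SE 0.19, adjusted p = 3.68e-07). The mitochondrial translation elongation factor mEFTs (CG6412) stood at 28.6, 34.7 and 38.1 CPM at 36 h and 93.0, 72.0 and 85.1 at 50 h (log2 fold change 1.14, SE 0.20, adjusted p = 0.000883). The transporter rdog (CG11897), of the ABC family, was lowest at 36 h with 12.4, 5.46 and 16.3 CPM and reached 43.7, 32.7 and 42.1 at 50 h (log2 fold change 1.65, SE 0.33, adjusted p = 0.00253). Its 84 h libraries held 36.8, 152 and 46.0 CPM, so 1 library carries the high 84 h mean.

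The remaining 6, like CG12496, have no name yet. CG15646 held 22.3, 15.4 and 18.4 CPM at 24 h and 12.4, 26.3 and 21.9 at 36 h, then 62.4, 69.5 and 56.5 at 50 h and 165, 215 and 272 at 84 h (log2 fold change 1.48, SE 0.27, adjusted p = 0.000884). CG8520 climbed at every age, with means of 3.71, 17.2, 46.7 and 98.0 CPM from 24 to 84 h (log2 fold change 1.28, SE 0.28, adjusted p = 0.00539 for 50 h against 36 h). CG31195, described above, rose by 1.66 on the log2 scale (SE 0.32, adjusted p = 0.00158) and its 50 h and 84 h libraries overlapped. CG18568 had 36 h libraries at 1.91, 1.17 and 1.50 CPM and 50 h libraries at 18.4, 14.3 and 8.64 (log2 fold change 2.99, SE 0.57, adjusted p = 0.00162). CG30383 had 7.25, 3.12 and 4.71 CPM at 36 h and 22.6, 25.6 and 26.4 at 50 h (log2 fold change 2.11, SE 0.41, adjusted p = 0.0018), and a lower 84 h mean of 13.6 CPM. CG17271 had means of 45.1, 33.8, 79.5 and 110 CPM from 24 to 84 h (log2 fold change 1.05, SE 0.22, adjusted p = 0.00372).

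**Figure D4:**
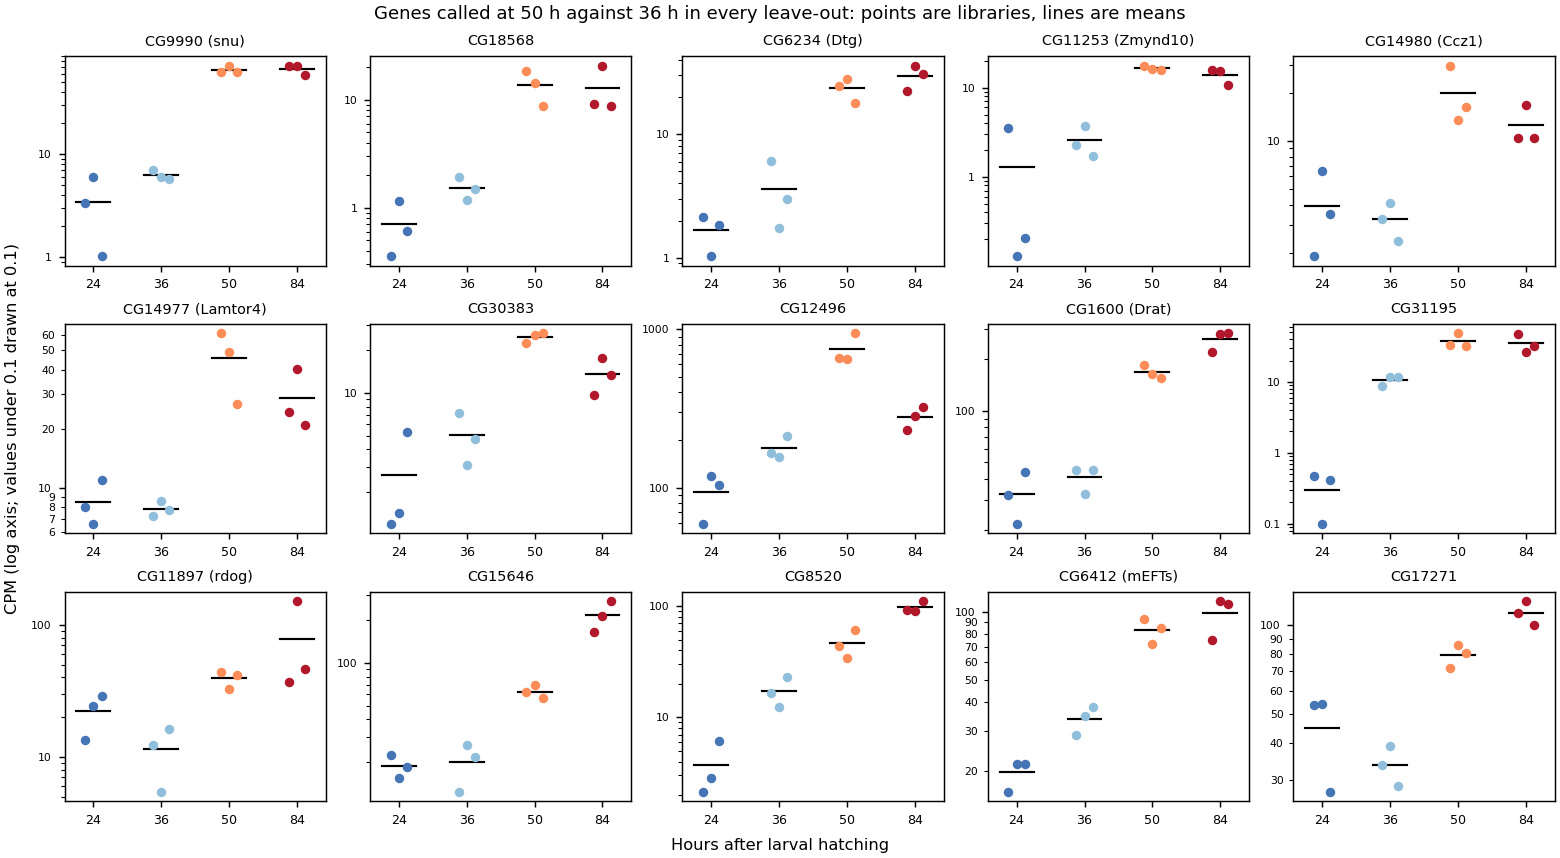
CPM on a log axis in every library for the 15 genes called higher at 50 h than at 36 h in each leave-out, by hours after larval hatching. Points are libraries, coloured by age, and lines are means of 3. In each panel all 50 h points lie above all 36 h points, and CG12496, CG30383, Lamtor4, Ccz1, Zmynd10, CG18568 and CG31195 have lower mean CPM at 84 h than at 50 h.

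The other 31 called members lost the call without at least 1 library, and their sizes are less certain. Gbs-70E rose by 2.11 on the log2 scale (SE 0.55, adjusted p = 0.0193), from 2.29, 7.60 and 1.07 CPM at 36 h to 17.4, 14.7 and 23.9 at 50 h, and its fold of 4.33 became 9.46 without 36 h replicate 2. CG33494 (log2 fold change 2.65, SE 0.83, adjusted p = 0.049) and CG43366 (2.54, SE 0.72, adjusted p = 0.0298) were sized by 36 h replicate 3: without it their folds of 6.26 and 5.83 became 30.1 and 16.2. CG3168 (2.47, SE 0.71, adjusted p = 0.031) had 36 h libraries at 1.15, 0.975 and 1.71 CPM and 50 h libraries at 10.6, 8.82 and 4.21. Among the abundant members, Akr1B (0.73, SE 0.19, adjusted p = 0.0178), Paip1 (0.48, SE 0.15, adjusted p = 0.0408), CG5676 (0.49, SE 0.15, adjusted p = 0.0431), Arl6IP1 (0.52, SE 0.16, adjusted p = 0.0443) and CG15628 (0.87, SE 0.26, adjusted p = 0.0448) were called with all 6 libraries. Their adjusted p reached 0.126, 0.195, 0.208, 0.165 and 0.235 with 1 library left out. CG6695, CG2865, Sf3b6 and Non2 were not called, with log2 fold changes of 0.41, 0.28, 0.37 and 0.39. Archease (CG6353), a cofactor of the tRNA-splicing ligase, had means of 5.33 CPM at 36 h and 18.5 at 50 h (log2 fold change 1.64, SE 0.46, adjusted p = 0.0274).

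Many of the genes that have since been named belong to protein complexes and pathways of the endoplasmic reticulum, mitochondria and nucleus. Sets of genes, 13 in all, were formed by current symbol, after values were known, so they describe the members and support nothing about a pathway. They hold 265 genes of the table, 57 of them members. The rule turned round was met by 0 of the 265, but it was rarely met at all, by 70 of the 7807 CG-numbered genes. The 17.9% of genes at 10 CPM or more that met the rule counts genes of any symbol. For CG-numbered genes at that level it was 20.7%. Shares of members below count CG-numbered genes only and take in set genes under that level. With any symbol and at least 10 CPM at 84 h, 6 of 8 ER membrane complex genes met the rule. So did 3 of 9 for GPI anchors, 3 of 6 for UFM1, 6 of 10 for mevalonate and 15 of 33 for complex I. Other respiratory complexes gave 3 of 28, synthetases 7 of 32, splicing 6 of 17, pore 12 of 24 and polymerases 3 of 11. Nucleolar proteins gave 3 of 10, tRNA modification 4 of 6 and Vps 7 of 22.

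The set with the largest share of members was one of the endoplasmic reticulum. The ER membrane protein complex inserts tail-anchored and multipass proteins into the membrane. Of its 10 genes in the table, all CG-numbered, 6 were members: EMC3, EMC5, EMC6, EMC7, EMC8-9 and EMC10, and 5 of these met the rule on TMM-adjusted CPM. EMC10 (CG32441) was the most changed, with means of 11.6, 21.6, 48.7 and 97.0 CPM from 24 to 84 h, and the one called at 50 h against 36 h (log2 fold change 1.00, SE 0.27, adjusted p = 0.0246, lost in 5 of 6 leave-outs). EMC7 (CG8397) went from a mean of 7.67 CPM at 24 h to 28.8 at 84 h and EMC8-9 (CG3501) from 2.34 to 15.6. All 9 genes of the complex that were tested had a log2 fold change above 0 at 50 h against 36 h, with a median of 0.38. Over all members 80% were above 0 with a median of 0.34, and over all genes tested 51.9% with a median of 0.02. UFM1 conjugation, a ubiquitin-like modification that acts on ribosomes at the same membrane, had 3 members of 7 genes. They were the ligase Ufl1 (CG1104, 10.9 to 32.7 CPM), the conjugating enzyme Ufc1 (CG8386, 11.7 to 24.8 CPM) and the protease Ufsp2 (CG16979, 7.82 to 25.3 CPM). The rule on TMM-adjusted CPM was met by 2 of these 3. At 50 h, 0 of the 7 genes were called by edgeR, with 1 higher at an unadjusted p under 0.05 and 1 called by DESeq2. Of 19 genes that make or attach GPI anchors 3 were members, PIG-B (CG12006), PIG-O (CG12263) and PIG-G (CG2144), and 0 of these met the rule on TMM-adjusted CPM.

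In the mevalonate pathway and prenyl transfer, which make isoprenoids and attach them to proteins, 6 of 12 genes were members and 5 of these met the rule on TMM-adjusted CPM. The pathway enzymes were Pmvk, Mvd (CG8239, 3.07 to 12.4 CPM) and Idi (CG5919, 8.98 to 28.6 CPM), and Dhdds (CG10778, 3.06 to 13.6 CPM) builds the dolichol chain. Fnta (CG2976) and Fntb (CG17565) form the farnesyltransferase, and Fntb went from 2.95 to 28.5 CPM. Of the 11 tested genes 0 were called at 50 h against 36 h by edgeR or DESeq2, with 1 higher and 1 lower at an unadjusted p under 0.05. The log2 fold changes of the members ran from -0.83 for Pmvk to 1.46 for Fntb (adjusted p = 0.061).

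In mitochondria, 11 of 37 genes for respiratory complex I, the NADH dehydrogenase, were members and 15 met the rule whatever their symbol, but only 2 of the 11 did so on TMM-adjusted CPM. ND-30 (CG12079) went from 39.7 to 98.6 CPM and ND-MLRQ (CG32230) from 38.1 to 85.5, with ratios of 1.87 and 1.67 on TMM-adjusted CPM. Of the 35 genes tested 0 were called at 50 h by edgeR, 3 were higher at an unadjusted p under 0.05 and DESeq2 called 1, and their median log2 fold change was 0.14. Of 29 genes for the other respiratory complexes, 2 were members, COX7B (CG7630) and UQCR-6.4 (CG14482), and 0 of these met the rule on TMM-adjusted CPM.

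In the nucleus and in translation, 4 of 25 nuclear pore genes were members, Gle1 (CG14749), Aladin (CG16892), Ndc1 (CG5857) and Nup35 (CG6540), and 12 of the 25 met the rule. Ndc1, a membrane anchor of the pore, went from 19.2 to 66.4 CPM. Of the 25 pore genes 5 were called higher at 50 h, 24 were above 0 and the median was 0.36, but 0 of the 4 members were among the 5. Over all genes tested 3.74% were called higher, 51.9% were above 0 and the median was 0.02. For the rising genes under other symbols these values were 17.5%, 83.3% and 0.40. Of 19 splicing genes of the SF3 and Prp series 5 were members, Sf3a2 (CG10754), Sf3b2 (CG3605), Sf3b6, Prp5 (CG6227) and Prp6 (CG6841). Only 2 of these 5 met the rule on TMM-adjusted CPM. Sf3b2 went from 93.1 to 209 CPM, but its ratio on TMM-adjusted CPM was 1.69. Of 38 aminoacyl-tRNA synthetase genes 5 were members, and SerRS (CG17259), which loads serine, was called at 50 h (log2 fold change 0.59, SE 0.18, adjusted p = 0.0486) but in 0 of 6 leave-outs. RNA polymerase I and III gave 2 members of 17 genes, the nucleolar Noc, Non and Nop proteins 3 of 10, and Vps trafficking proteins 3 of 27. Of 15 tRNA modification genes 4 were members, Dus1 (CG3645), Dus3 (CG10463), Tcs3 (CG4933) and Trm7-32, and these 4 had log2 fold changes of -0.25 to -0.10 at 50 h against 36 h and were not called. On TMM-adjusted CPM the rule was met by 2 of the 4 pore members, 1 of 5 for synthetases and 1 of 2 for polymerases. It was met there by 0 of the 3 nucleolar members, 1 of 3 for Vps and 1 of 4 for tRNA modification.

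**Figure D5:**
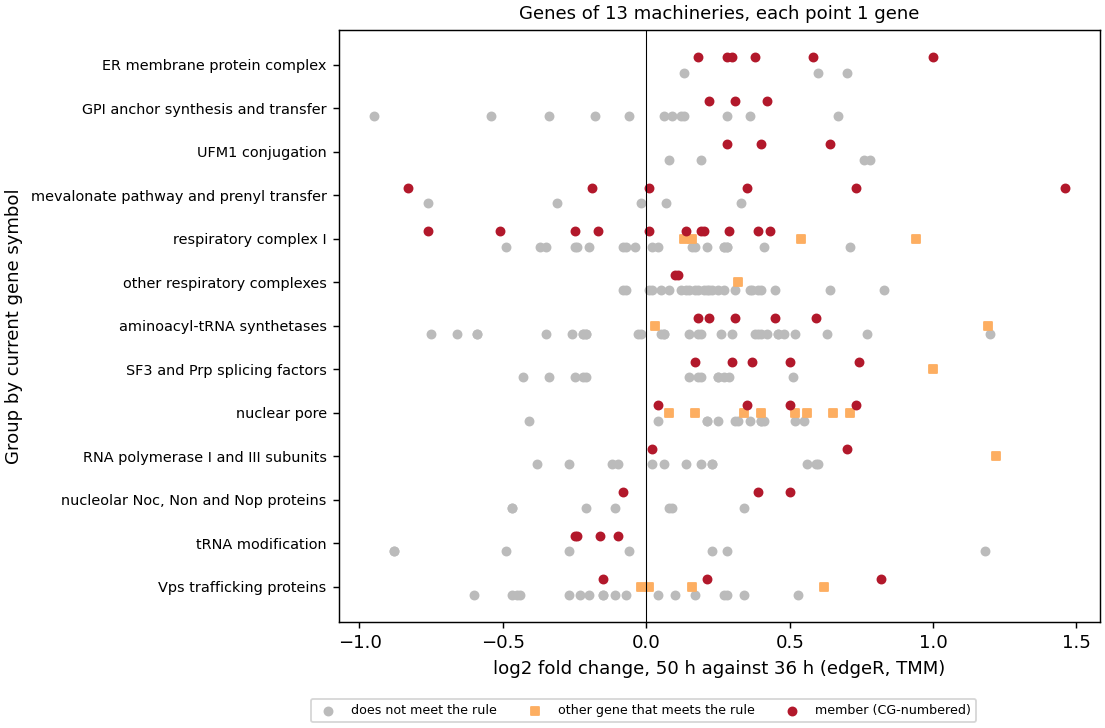
The log2 fold change at 50 h against 36 h for each tested gene of 13 sets formed by current gene symbol. Red points are the CG-numbered members, orange squares other genes that meet the same rule, and grey points genes that do not. All points of the ER membrane protein complex lie right of 0, and all 4 members of the tRNA modification set left of it.

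The rule did not use gene length or position. The members' coding regions were shorter, with a median of 358 codons over 417 members. The median was 450 over the 2537 CG-numbered genes at 5 CPM or more, a set that includes members. Among tested CG-numbered genes, members made up 19.9% of those under 200 codons, 13.8% of those with 200 or more but under 500, and 9.47% of those with 500 or more. Over all genes tested in these length classes, the median log2 ratio of 84 h to 24 h on CPM was 0.59, 0.48 and 0.28, so shorter genes in general had higher ratios in these libraries. The part of length in the members' choice was not tested. At 50 h against 36 h the members' medians were 0.34, 0.34 and 0.32 in the 3 classes, beside 0.12, 0.06 and -0.02 for all genes tested.

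By chromosome the members were spread much like all CG-numbered genes at 5 CPM or more, a set that includes members. Their shares, with those of that set in brackets, were 15.8% on X (17.8%), 19.8% on 2L (17.1%), 20.8% on 2R (19.2%), 19.8% on 3L (20.6%), 23.6% on 3R (24.5%) and 0.239% on 4 (0.786%). There were 26 pairs of members next to each other in the annotation, such as Lamtor4 with Ccz1 and CG15628 with Fnta. Pairs were not counted for other genes, so whether members lie together more often was not tested. Exons overlapped those of another gene for 183 of 419 members (43.7%, against 44.6% of the wider set that includes members). For 9 the overlap covered most of their length: CG10674, Wdr33 (CG1109), CG12134, Ccdc58 (CG15881), CG1635, CG17343, CG31229, CG34231 and CG9855. Without a stated strand setting, reads of these 9 cannot be told from those of their partners.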

How the data were processed

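Counts per gene and ERCC spike-in were used as deposited, unscaled from the values in the table, for 15340 genes and 92 spike-ins in 12 libraries. TPM were computed by the authors and used as deposited (418 of the 421 genes have 1 row there). The submitters' processing notes name HTSeq 0.6.1p1, STAR 2.4.0i, Bowtie2 2.1.0, cutadapt 1.7.1 and CASAVA as tools and BDGP5, dm3 and mm10 as builds; what each was used for, the read filters and the strand setting are not stated. Amplification of RNA from about 100 cells without molecular identifiers adds spread, and floors cover counting error only. Per the labels, libraries of an age are replicates, but no label says whether each had its own dissection; the p-values reflect only how these libraries vary, which can be technical variation.

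CPM were computed in Python 3.11.15 with pandas 2.3.3. The 50 h and 36 h libraries were compared in R 4.3.3 with edgeR 4.0.16 (filterByExpr, TMM, robust quasi-likelihood fit with 4 residual degrees of freedom, biological coefficient of variation 29.3%; the filter kept 99.73% of counts). Other settings used DESeq2 1.42.0 and limma 3.58.1 on log2(TPM + 1) and log2(TPM + 0.1), other scalings, filters and covariates, and left out each library in turn. The procedure was run on simulated data that gave every gene the same coefficient of variation, and no result here rests on that run.

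The members, the gene lists and the tests were chosen with earlier results of these data known. Genes are named when they are among the 10 members with the highest 84 h mean, the 10 with the largest ratio, the 10 with the largest called rise at 50 h, any called lower, or at the edges of the rule. Those called in every leave-out, those in the symbol sets and a few with a shape described in the text were named after their values were seen. Grouping by product text was replaced by sets formed on current symbols, since the annotation used gives names but no products. Sequences and promoter motifs were not analysed here. Names, lengths and neighbours come from the Release 6 annotation, and no coordinates are given because the deposited counts use another build.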

Additional observations from a re-analysis of the deposited data

How the results depend on the processing

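The median difference between members and all genes at 50 h against 36 h stayed above 0 under all 17 settings other than the reported one (0.19 to 0.38 on the log2 scale). Settings that change only the library sizes could hardly move it. No called member changed direction under any of the 17, but these genes were picked for a rise in the same libraries. The counts of calls were less stable, and the cause was not tested. Members called higher numbered 25 with all 12 libraries in one fit, 17 with spike-in totals, 24 with limma on log2(TPM + 0.1) and 30 when sorted cell number entered as a covariate, against 46, and 20 to 30 with a library left out. Members called lower numbered 0 to 1 with a library left out. For all genes, the higher and lower calls were 150 and 189 with all 12 libraries, 107 and 4 with spike-in totals, 161 and 65 on log2(TPM + 1), and 131 and 56 on log2(TPM + 0.1). Without TMM the lower calls were 150. With a library left out the higher calls ran from 156 to 238 and the lower from 191 to 294. The members' median was 1.41 with spike-in totals, where that of all genes was 1.08, and 0.28 to 0.43 with a library left out.

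With replicate number as a block, 449 genes were called higher and 549 lower, and 66 members higher. The numbers were not taken to pair the libraries: deviations of same-numbered 36 h and 50 h libraries correlated at 0.048, 0.119 and 0.183 across genes, not all above 0.1. Each library correlated best with its own number, a hint from the data and not from the design.

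The rule kept 182 genes on TMM-adjusted CPM, 850 with spike-in scaling, 159 at a ratio of 3, and 378 to 616 with a library left out. The early class held 79 to 165 genes with a library left out, and the late class 2 with spike-in scaling. The members' median log2 fold change of 0.34 stood beside a median standard error of 0.36.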
